A study of Mus musculus with 18 samples.

Results

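The livers of 6 tumour-bearing mice whose hepatocytes lack the transcription factor STAT3 were compared with the livers of 6 tumour-bearing wild-type (WT) mice, across all expressed genes. The samples were chosen by their titles, which gives 12 of the 18 libraries of the series. The first group has the genotype Alb-Cre+/+;Stat3f/f and is called Stat3-deleted. Alb-Cre expresses Cre recombinase from the albumin promoter, which is active in hepatocytes, and Cre removes the floxed part of Stat3 there, while endothelial, stellate and immune cells of the liver keep the gene. The second group has the genotype WT, so by the labels the groups differ by Alb-Cre as well as by Stat3. At any gene, an effect of Alb-Cre or of strain background cannot be told apart from one of losing STAT3. Both groups bore PDA.69, a mouse pancreatic ductal adenocarcinoma line derived from the KPC model and described in the labels as poor in T cells. A further 6 libraries of control WT livers served to ask whether a gene also differed with the tumour alone. The labels list PDA.69 for these controls too, and they state no age, sex, tumour site or time. Stat3-deleted livers without a tumour were not analysed here, so a difference that the deletion makes without a tumour cannot be told apart from one that needs it. Nothing beyond distinct label numbers says that the libraries come from separate mice, and p-values then measure the spread between these samples.

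STAT3 is the main transcription factor through which interleukin 6 (IL-6) and its relatives act on hepatocytes. Receptor-bound JAK kinases phosphorylate it, it enters the nucleus as a dimer, binds palindromic TTCNNNGAA sites, and switches on acute-phase plasma proteins together with its own inhibitor Socs3. Interferon signals act on many genes through another DNA sequence, the interferon-stimulated response element (ISRE).

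RNA was read as 3′ tags, 1 count per read at the end of a polyadenylated transcript, and levels are given as CPM, the count relative to the library total after TMM scaling. Hereafter WT means tumour-bearing WT, and a log2 fold change without another label is Stat3-deleted over tumour-bearing WT livers. Total counts were 6168658 to 8850200 in WT and 7222882 to 9545442 in Stat3-deleted tumour-bearing livers. Of the 14 hepatocyte markers tested 1 was higher and 1 lower, and their summed level was 82900 to 180000 CPM in WT and 117000 to 133000 CPM in Stat3-deleted livers. On the first principal component of the 12 livers (26.1% of the variance) the WT livers lay between −49.9 and −15.2 and the Stat3-deleted livers between 24.3 and 31.8. WT replicate 6 stood apart on the second component (17.1%), at 54.67 against −26.95 to 24.81 for the other 11 livers, and had the smallest TMM factor (0.750 against 0.890 to 1.09 in the other WT livers).

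In edgeR's quasi-likelihood test, with Benjamini-Hochberg adjustment over all genes, 686 of 11218 tested genes (6.12%) differed at an adjusted p under 0.05. These were 324 higher (2.89%) and 362 lower (3.23%) in Stat3-deleted livers, and 306 of them differed at least 2-fold, 112 higher and 194 lower. An unadjusted p under 0.05 was reached by 2181 genes. The 6 Stat3-deleted livers lay all above or all below the 6 WT livers for 370 genes (3.3%), of which 314 were called. Without WT replicate 6 the count of called genes was 906. The higher genes numbered 213 without WT replicate 3, and 213 again without replicate 4. Scaled by library totals without TMM, 694 genes were called, of which 61.1% were higher, against 47.2% with TMM, so the balance of directions depends on the scaling. The labels number the WT tumour-bearing livers in a lower run (replicates 1 to 3) and a higher run (replicates 4 to 6), and all Stat3-deleted livers have numbers below both, so genotype and label run cannot be told apart. Against WT replicates 1 to 3 alone 812 genes were called, and against replicates 4 to 6 alone 373. No called gene had the opposite sign in either.

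**Figure D1:**
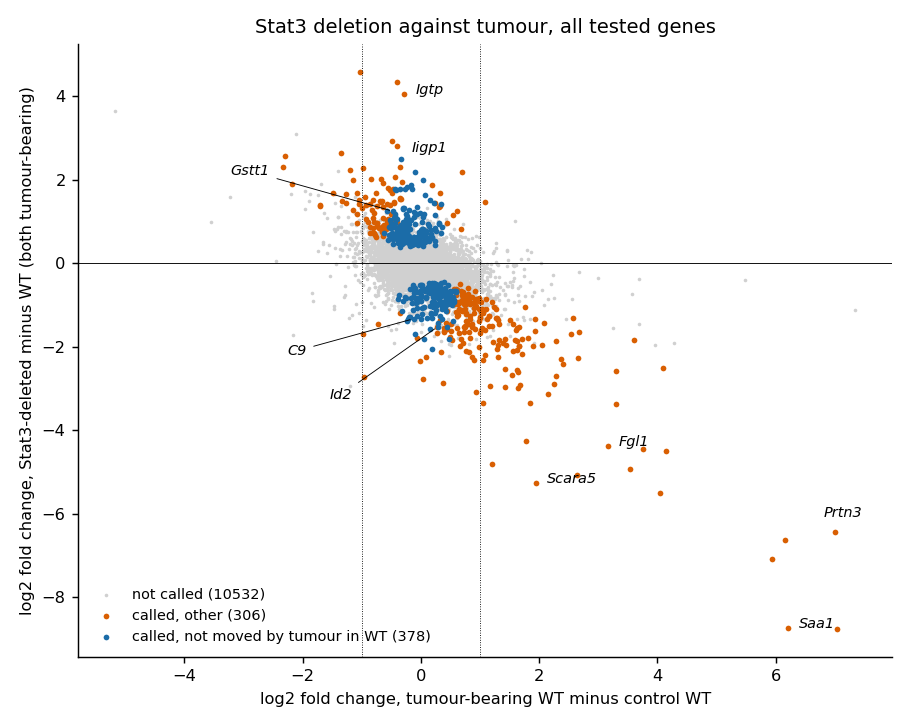
Each point is 1 tested gene, with the log2 fold change of tumour-bearing over control WT livers on the x axis and of Stat3-deleted over WT livers, both tumour-bearing, on the y axis. The 378 called genes that the tumour did not move lie between the dotted lines at −1 and 1, with Iigp1 and Irgm2 among the highest and Id2 and C9 below 0; both axes use the tumour-bearing WT livers, so the downward slope of the cloud is no result, and the 2 genes at 0 counts in all WT livers are not drawn.

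Stat3 itself (chr11:100886806-100939594, mm10) was the first check of the labels. It ran from 163 to 264 CPM in WT (median 215) and from 99.4 to 132 CPM in Stat3-deleted livers (median 116), with no overlap (log2 fold change −0.85, SE 0.14, adjusted p = 0.00043). In control WT livers it stood at 93.6 to 148 CPM (median 110). The tag lies at the 3′ end, which need not be part of the floxed stretch, and endothelial, stellate and immune cells keep Stat3, so the level that remains does not measure the deletion. Of 30 tested genes of IL-6 and STAT3 signalling 5 were lower and 1 higher, with a median log2 fold change of −0.18 beside −0.03 over all genes. The 5 lower ones numbered 3 without Stat3-deleted replicate 3. Tifa, an adaptor of the TRAF6 and NF-kB pathway, ran from 21 to 54.9 CPM in WT (median 28.4) and from 6.08 to 11.9 CPM in Stat3-deleted livers (median 9.63), with log2 fold change −1.80 (SE 0.25, adjusted p = 5.98e-05). Junb, an AP-1 subunit, fell by 1.05 (log2, with SE 0.22 and adjusted p = 0.00516). For the feedback inhibitor Socs3 the groups overlapped: it ran from 9.48 to 70.9 CPM in WT (median 26.8) and from 5.54 to 18.8 CPM in Stat3-deleted livers (median 7.68), with log2 fold change −1.83 (SE 0.46, adjusted p = 0.0182), and its call was lost without WT replicate 3 (adjusted p = 0.0701) or without Stat3-deleted replicate 3 (0.0506). Against WT replicates 4 to 6 alone its call was lost as well (adjusted p = 0.152). In control WT livers Socs3 stood at 0.575 to 8.67 CPM (median 1.72), below the Stat3-deleted median.

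Promoters, 250 bases before to 50 after a RefSeq start site, were found for 8614 of the tested genes (76.8%; from RefSeq, build GRCm38.p6, the same assembly as mm10) and searched on both strands for letters that these factors bind. Those of 3 genes that fell and 3 that rose are printed, because they hold the STAT letters TTCNNNGAA or the ISRE letters (GAAA, any 2 bases, GAAA). Capitals mark these matches, also where they read on the opposite strand.
Fgb (chr3:83049814-83050113, minus strand): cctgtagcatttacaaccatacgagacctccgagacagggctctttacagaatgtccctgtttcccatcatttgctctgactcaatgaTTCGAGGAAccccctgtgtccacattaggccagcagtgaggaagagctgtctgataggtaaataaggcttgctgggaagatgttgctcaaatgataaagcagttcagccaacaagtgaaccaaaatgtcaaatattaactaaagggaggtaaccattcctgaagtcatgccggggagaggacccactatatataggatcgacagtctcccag
Apcs (chr1:172895005-172895304, minus strand): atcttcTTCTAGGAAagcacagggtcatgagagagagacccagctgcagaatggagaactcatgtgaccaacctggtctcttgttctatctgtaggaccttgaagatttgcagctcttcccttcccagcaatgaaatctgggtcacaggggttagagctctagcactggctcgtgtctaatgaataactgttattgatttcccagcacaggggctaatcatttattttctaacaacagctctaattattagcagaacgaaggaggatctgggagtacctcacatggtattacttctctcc
C8a (chr4:104876349-104876648, minus strand): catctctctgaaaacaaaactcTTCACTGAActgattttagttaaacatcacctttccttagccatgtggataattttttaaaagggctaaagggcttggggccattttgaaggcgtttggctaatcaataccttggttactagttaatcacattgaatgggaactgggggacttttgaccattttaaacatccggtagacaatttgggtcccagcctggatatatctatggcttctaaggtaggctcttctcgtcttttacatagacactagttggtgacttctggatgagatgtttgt
Igtp (chr11:58199306-58199605, plus strand): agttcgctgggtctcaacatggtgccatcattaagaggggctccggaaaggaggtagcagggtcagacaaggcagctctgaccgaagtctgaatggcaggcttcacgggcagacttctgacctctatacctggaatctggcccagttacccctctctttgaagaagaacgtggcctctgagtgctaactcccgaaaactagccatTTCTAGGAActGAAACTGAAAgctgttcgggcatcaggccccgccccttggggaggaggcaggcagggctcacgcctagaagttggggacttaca
Irgm2 (chr11:58214727-58215026, plus strand): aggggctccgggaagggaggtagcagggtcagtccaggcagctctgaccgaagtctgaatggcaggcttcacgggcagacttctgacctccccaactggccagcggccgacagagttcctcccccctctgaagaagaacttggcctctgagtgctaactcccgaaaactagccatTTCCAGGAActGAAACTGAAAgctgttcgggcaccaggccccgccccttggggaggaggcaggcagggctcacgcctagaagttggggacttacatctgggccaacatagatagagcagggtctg
Ifit1 (chr19:34640639-34640938, plus strand): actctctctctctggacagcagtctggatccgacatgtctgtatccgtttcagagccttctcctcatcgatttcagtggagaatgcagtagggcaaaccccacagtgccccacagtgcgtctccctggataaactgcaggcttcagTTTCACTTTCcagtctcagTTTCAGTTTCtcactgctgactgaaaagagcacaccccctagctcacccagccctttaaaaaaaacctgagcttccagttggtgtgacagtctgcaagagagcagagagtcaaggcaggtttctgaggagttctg
Fgb encodes the fibrinogen beta chain, Apcs serum amyloid P and C8a a subunit of the complement attack complex, and all 3 fell. Each holds 1 STAT match, at −162, −244 and −228 from the start. Igtp and Irgm2 encode interferon-inducible GTPases and Ifit1 an RNA-binding antiviral protein, and all 3 rose. Igtp has a STAT match at −45 and an ISRE match at −34, Irgm2 the same pair at −75 and −64, and Ifit1 has ISRE matches at −104 and −85. The promoters of Igtp and Irgm2, which neighbour each other, share a run of 61 identical bases, so they are not independent examples. Among all 11012 promoters of tested genes 6.95% held the STAT letters, against 7.84% for genes that fell and 7.8% for genes that rose. The share was 5 of 19 (26.3%) for acute-phase genes that fell and 8 of 27 (29.6%) for the called interferon and antigen-processing genes. The ISRE letters stood in 3.07% of all promoters, 3.64% for genes that fell and 6.65% for genes that rose and 12 of 27 (44.4%) for the called interferon and antigen-processing genes. The C/EBP letters TTGCNNAA stood in 8.92% of all promoters, in 13.4% for genes that fell and in 12 of 19 (63.2%) for acute-phase genes that fell. For called genes that the tumour did not move (rule below), the C/EBP letters stood in 6.51% of lower and 7.63% of higher promoters. In the same 2 sets the STAT letters stood in 5.92% and 6.36%, and the ISRE letters in 2.37% and 5.51%. The NF-kB letters (GGG, any 3 bases, TTCC) stood in 6.26%, 8.4% and 7.23% of all, lower and higher promoters. Matches of different motifs may overlap and were counted separately. These shares describe letters in a fixed window and were not tested.

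The acute-phase proteins held the largest decreases. Of 34 tested members of that list 24 were lower and 1 higher (the IL-1 receptor antagonist Il1rn), with a median log2 fold change of −1.83. The summed level of all 36 listed members was 76000 to 239000 CPM in WT and 36200 to 48300 CPM in Stat3-deleted livers. Saa1 and Saa2, near-identical genes of serum amyloid A whose reads may be shared, fell, with log2 fold changes of −8.73 and −8.76. Orm1 and Orm3, which encode the acute-phase orosomucoids, fell, with log2 fold changes of −3.13 and −4.44, and the gene counts of this family may share reads. The values of Saa1 and Saa2 rested in part on Stat3-deleted replicate 4, without which they were −9.88 and −11.59, and that of Saa2 was −8.08 without WT replicate 4. Lrg1, a leucine-rich plasma glycoprotein, ran from 1670 to 5370 CPM in WT (median 3400) and from 386 to 627 CPM in Stat3-deleted livers (median 457), with log2 fold change −2.88 (SE 0.33, adjusted p = 4.96e-06). Hpx, which encodes the haem scavenger hemopexin, ran from 12150 to 29010 CPM in WT (median 19585) and from 4232 to 8039 CPM in Stat3-deleted livers (median 5116), with log2 fold change −1.87 (SE 0.23, adjusted p = 2.09e-05). The 6 livers of each group did not overlap for either gene. Fgb ran from 10020 to 25890 CPM in WT (median 15695) and from 4950 to 6323 CPM in Stat3-deleted livers (median 5906), and Apcs from 576 to 4474 CPM in WT (median 1749) and from 79.9 to 109 CPM in Stat3-deleted livers (median 94.1). Control WT livers stood at 4540 to 6745 CPM (median 5090) for Fgb and 50.7 to 204 CPM (median 127) for Apcs, so the Stat3-deleted livers lay within the control range in both, with log2 fold changes of 0.09 (adjusted p = 0.853) and −0.35 (adjusted p = 0.693) against controls. Fgl1, a fibrinogen-like hepatokine, lay below the control range. It ran from 1618 to 5481 CPM in WT (median 3228) and from 120 to 213 CPM in Stat3-deleted livers (median 160) and from 268 to 509 CPM (median 366) in controls, and its log2 fold change against controls was −1.20 (SE 0.24, adjusted p = 0.00712). Orm1 lay below its control range too, at 374 to 675 CPM in Stat3-deleted livers against 690 to 1535 CPM in controls. Saa1 and Saa2 overlapped the controls, with Stat3-deleted medians of 20 and 5.2 CPM against 202 and 83.8 CPM. Lrg1 and Hpx also overlapped the controls (354 to 1433 CPM and 4658 to 9277 CPM).

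Among 28 tested complement genes 11 were lower and 0 higher, with a median of −0.39. C8a ran from 1406 to 2332 CPM in WT (median 1692) and from 575 to 971 CPM in Stat3-deleted livers (median 714), with log2 fold change −1.27 (SE 0.16, adjusted p = 2.24e-05). In controls C8a stood at 941 to 1285 CPM (median 1208). Hc, which encodes complement C5, fell by 1.46 (SE 0.12, adjusted p = 4.15e-08), and was also lower than in controls (log2 fold change −0.65, adjusted p = 0.00367). Of 23 coagulation genes 4 were lower and 1 higher. Cpb2, a carboxypeptidase that slows clot lysis, ran from 495 to 1353 CPM in WT (median 679) and from 316 to 412 CPM in Stat3-deleted livers (median 359), with log2 fold change −1.08 (SE 0.19, adjusted p = 0.000816).

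Genes of several other functions fell as well. Dnajc12, a co-chaperone of the aromatic amino acid hydroxylases, ran from 32.7 to 183 CPM in WT (median 84.1) and from 5.76 to 12.9 CPM in Stat3-deleted livers (median 9.01), with log2 fold change −3.37 (SE 0.33, adjusted p = 6.82e-07). Scara5, a scavenger receptor that binds ferritin, ran from 16.1 to 66.4 CPM in WT (median 37.1) and from 0.259 to 2.05 CPM in Stat3-deleted livers (median 0.806), with log2 fold change −5.26 (SE 0.78, adjusted p = 0.00013), and it was lower than in controls as well (−3.31, adjusted p = 0.0173). Atp11a, a phospholipid flippase, ran from 7.57 to 27.4 CPM in WT (median 21.4) and from 0.769 to 5.3 CPM in Stat3-deleted livers (median 2.4), with log2 fold change −2.96 (SE 0.34, adjusted p = 6.32e-06). The groups did not overlap for Dnajc12, Scara5 or Atp11a. Nnmt, which methylates nicotinamide, ran from 222 to 975 CPM in WT (median 301) and from 87.6 to 168 CPM in Stat3-deleted livers (median 116), with log2 fold change −1.83 (SE 0.31, adjusted p = 0.000514), and Ldha, a lactate dehydrogenase subunit, fell by 0.86 (SE 0.17, adjusted p = 0.00277). Fn1, which encodes fibronectin of plasma and matrix, ran from 898 to 2033 CPM in WT (median 1127) and from 435 to 552 CPM in Stat3-deleted livers (median 503), with log2 fold change −1.32 (SE 0.18, adjusted p = 5.54e-05). Of the 38 tested members of the cytochrome P450 list only Cyp3a13 was called lower. Cyp7a1, a P450 gene held by the bile acid list instead, was called lower too (log2 fold change −1.53, SE 0.46, adjusted p = 0.0475). Cyp3a13 ran from 315 to 872 CPM in WT (median 365) and from 138 to 180 CPM in Stat3-deleted livers (median 162), with log2 fold change −1.46 (SE 0.21, adjusted p = 9.26e-05). The highest WT value is that of replicate 6, and without it the log2 fold change was −1.15.

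Some genes on the marker lists of other cells were lower as well. Of 10 tested neutrophil markers 8 were lower, with a median of −1.63. The summed level of all 19 listed markers with counts was 5170 to 7380 CPM in WT, 1440 to 2060 CPM in Stat3-deleted and 2290 to 3860 CPM in control livers. Most of that sum is Wfdc21, a protein with a WAP domain, which ran from 4733 to 6052 CPM in WT (median 5192) and from 1342 to 1902 CPM in Stat3-deleted livers (median 1767), with log2 fold change −1.64 (SE 0.15, adjusted p = 2.83e-07). In control livers Wfdc21 stood at 2194 to 3808 CPM (median 3314), where S100a9 was at 8.12 to 23.3 CPM. Which cells made Wfdc21 was not tested, so the sum is no measure of neutrophils. Lcn2, also on the list, is an acute-phase gene. Prtn3, a protease of neutrophil granules, ran from 53.8 to 142 CPM in WT (median 73.5) and from 0.682 to 1.29 CPM in Stat3-deleted livers (median 0.956), within the control range of 0 to 1.55 CPM, and S100a9 ran from 28.5 to 135 CPM in WT (median 70.3) and from 16.5 to 45.8 CPM in Stat3-deleted livers (median 21.1). In bulk tissue the cells that made a transcript are not known, and fewer cells of a type and less RNA per cell cannot be told apart. The neutrophil chemokine Cxcl1 ran from 23.4 to 168 CPM in WT (median 84.4) and from 0.574 to 4.17 CPM in Stat3-deleted livers (median 1.71), with log2 fold change −5.51 (SE 0.46, adjusted p = 4.24e-08). Jchain, the joining chain that plasma cells make, ran from 6.02 to 34.9 CPM in WT (median 22.6) and from 1.08 to 4.78 CPM in Stat3-deleted livers (median 2.88), with log2 fold change −2.87 (SE 0.53, adjusted p = 0.00158). Sox9 and Spp1, markers of the biliary list, fell by 1.35 (adjusted p = 0.000883) and 2.06 (adjusted p = 0.00139), 2 of its 9 tested members. Of 16 Kupffer cell markers and 10 T and NK cell markers 0 were called by edgeR, by DESeq2 or by limma voom, and 0 had p under 0.05 before adjustment, with medians of −0.06 and −0.14. Summed T and NK markers were 18.3 to 46.1 CPM in WT and 21.5 to 48.7 CPM in Stat3-deleted livers. Of 5 tested tumour-cell markers 1 was higher (Gsta4, which is also a conjugation gene). The sum over all 18 listed markers was 48.5 to 95 CPM in WT, 86.3 to 132 CPM in Stat3-deleted and 96.8 to 151 CPM in control livers. Gsta4 made up most of that sum, with means of 50 CPM in WT, 97.7 CPM in Stat3-deleted and 105 CPM in control livers. The sum is therefore no measure of tumour cells. The part of these cells in the liver-wide differences was not tested.

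**Figure D2:**
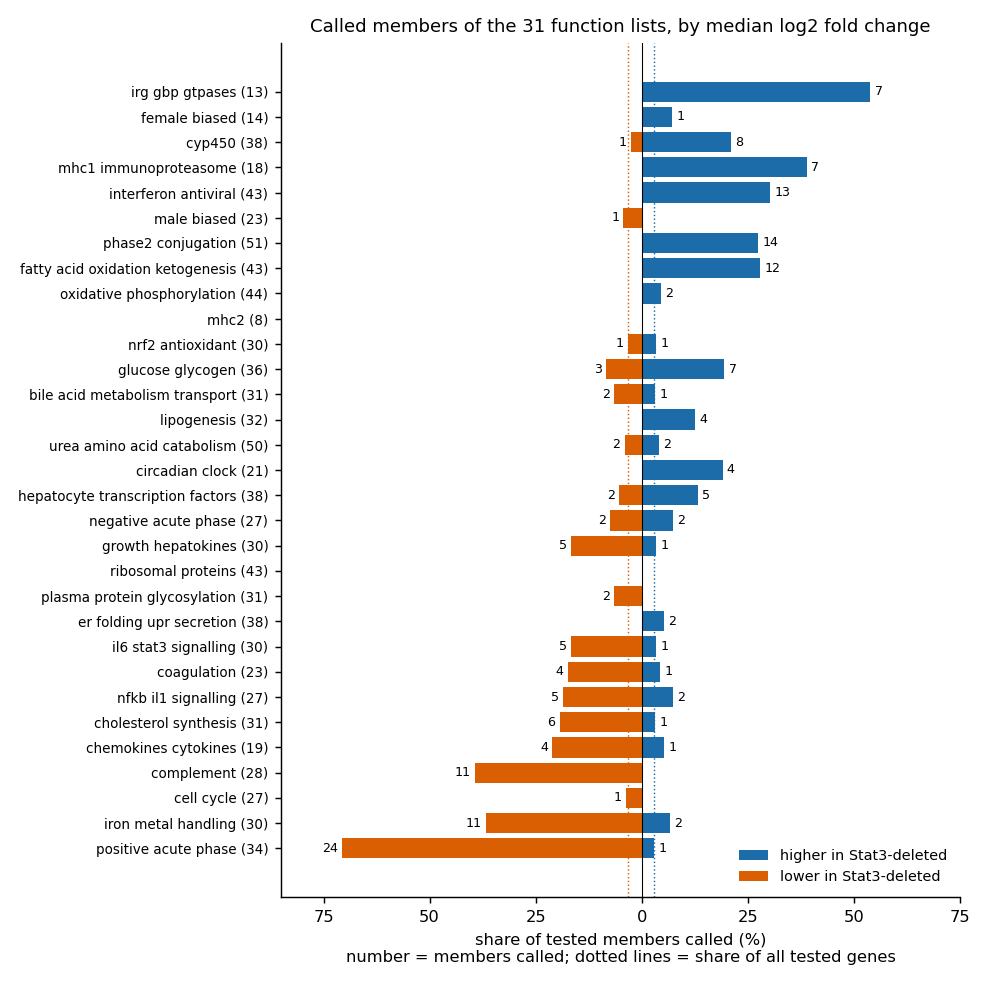
Bars give the percentage of tested members called higher (blue, right) or lower (orange, left) in Stat3-deleted livers for each of 31 function lists, with the number called at the bar end and the number tested in parentheses. The acute-phase list (24 of 34 lower) and the GTPase list (7 of 13 higher) have the longest bars; dotted lines mark the shares over all genes, 2.89% and 3.23%.

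A gene was taken as not moved by the tumour when the contrast of tumour-bearing and control WT livers had an adjusted p of at least 0.05 and its 95% interval stayed within a 2-fold change either way. In that contrast 252 of 11218 genes were called (2.25%). Of the 686 genes called for Stat3 deletion 378 met the rule (3.37% of all tested genes and 55.1% of the called genes), 222 higher and 156 lower in Stat3-deleted livers. Of these, 79 differed at least 2-fold, and 164 were also called against controls in the same direction, 97 higher and 67 lower. The median log2 fold change of the 222 higher genes was 0.68 for the deletion, −0.22 for the tumour and 0.51 against controls. The 156 lower genes had medians of −0.81, 0.22 and −0.57. Both contrasts use the same tumour-bearing WT livers, so a chance low in those livers raises 1 and lowers the other. The count was 242 without WT replicate 2, 249 without replicate 3, 246 without replicate 4, 572 without replicate 6 and 251 without Stat3-deleted replicate 5. It was 158 with the interval held within 1.5-fold and 555 with no limit on the interval. Tap1 and Iigp1 lay just inside the limit, with lower bounds of −0.999 and −0.996 for the tumour contrast, and Cyp2c67, a P450 gene, just outside, with −1.01. How many uncalled genes met the rule is not given here. The 55.1%, and the list members said below to meet the rule, are therefore not shown to differ from other genes.

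Among the genes that fell without having moved with the tumour were regulators of transcription and signalling. Id2, which blocks basic helix-loop-helix factors (chr12:25093799-25096092), ran from 397 to 1040 CPM in WT (median 716) and from 197 to 284 CPM in Stat3-deleted livers (median 247), against 442 to 780 CPM (median 573) in controls. The Stat3-deleted livers lay below all 12 WT livers (log2 fold change −1.52, SE 0.20, adjusted p = 3.64e-05; log2 fold change against controls −1.24, adjusted p = 0.00115). Tbx3, a T-box repressor of perivenous hepatocytes (chr5:119670534-119684724), ran from 25.3 to 52.4 CPM in WT (median 33.7) and from 8.77 to 18.5 CPM in Stat3-deleted livers (median 13.6) and from 17.5 to 42.5 CPM (median 30.3) in controls (log2 fold change −1.42, SE 0.21, adjusted p = 0.00017). Egfr, the receptor of epidermal growth factor (chr11:16752203-16913907), ran from 280 to 379 CPM in WT (median 310) and from 124 to 203 CPM in Stat3-deleted livers (median 151), with log2 fold change −0.996 (SE 0.18, adjusted p = 0.00142), and the control range of 145 to 385 CPM overlapped both groups. Tnfaip2, a TNF-induced cytoplasmic protein, ran from 22.9 to 58.8 CPM in WT (median 52.5) and from 16.7 to 23.2 CPM in Stat3-deleted livers (median 20.2), with log2 fold change −1.19 (SE 0.22, adjusted p = 0.00184). Map3k1, a kinase upstream of JNK, fell by 1.13 (SE 0.24, adjusted p = 0.0054). Rgs5, a regulator of G-protein signalling found in pericytes, fell by 1.14 (adjusted p = 0.00894), and Kcnq1ot1, an RNA antisense to Kcnq1 whose reads cannot be told from those of its partner without strand, by 1.27 (adjusted p = 0.00978). Groups overlapped for Tnfaip2, Map3k1, Rgs5 and Kcnq1ot1, and the calls of the last 3 were lost against WT replicates 4 to 6 alone (adjusted p = 0.123, 0.205 and 0.278).

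C9, the pore-forming last component of complement (chr15:6445346-6498825), ran from 289 to 597 CPM in WT (median 397) and from 127 to 207 CPM in Stat3-deleted livers (median 149), while controls stood at 254 to 608 CPM (median 424), so all 6 Stat3-deleted livers were below all 12 WT livers (log2 fold change −1.33, SE 0.21, adjusted p = 0.000338). Its tumour contrast was −0.12 (95% interval −0.56 to 0.31). The tumour contrasts of C8a and Hc were 0.60 and 0.80, both called, and their difference from that of C9 was not tested. B3galt1, a galactosyltransferase, ran from 25.4 to 61.6 CPM in WT (median 29.9) and from 7.91 to 21.9 CPM in Stat3-deleted livers (median 10.5), with log2 fold change −1.52 (SE 0.27, adjusted p = 0.00095). The highest WT value is that of replicate 6, without which its log2 fold change was −1.27. Slc46a3, a lysosomal transporter, fell by 1.03 (SE 0.19, adjusted p = 0.00117), and Rarres1, a carboxypeptidase inhibitor, by 1.30 (adjusted p = 0.0157). For both, controls (12.3 to 28.8 CPM and 7.47 to 66 CPM) overlapped the Stat3-deleted livers (9.55 to 15.5 CPM and 10.2 to 28.6 CPM). The call of Rarres1 was lost against either run of WT replicates alone (adjusted p = 0.0709 and 0.0721). In cholesterol synthesis 6 of 31 tested genes were lower and 1 higher, with a median of −0.32, and the lower ones numbered 3 without WT replicate 3 and 2 without replicate 4. Sqle, squalene epoxidase, ran from 65.9 to 171 CPM in WT (median 87.4) and from 32.8 to 64.9 CPM in Stat3-deleted livers (median 54.8), with log2 fold change −0.98 (SE 0.23, adjusted p = 0.0107). Fdps, farnesyl diphosphate synthase, one of the members the tumour did not move, fell by 0.90 (SE 0.22, adjusted p = 0.0132). Both calls were lost against WT replicates 1 to 3 alone (adjusted p = 0.0638 for Sqle and 0.062 for Fdps).

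**Figure D3:**
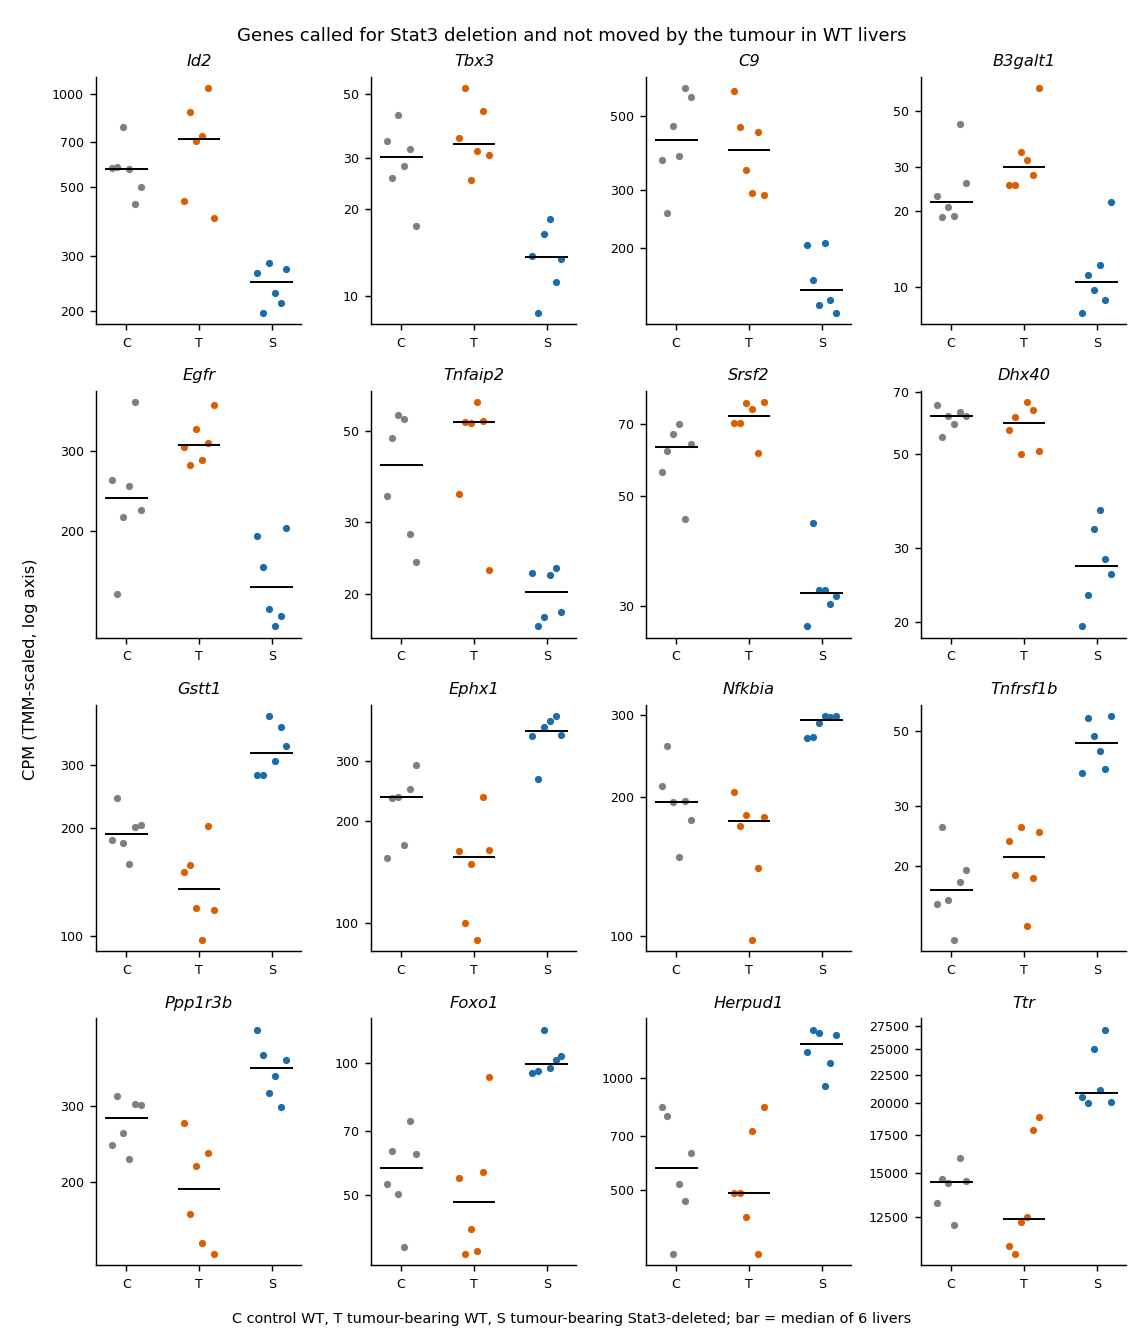
Each panel gives 1 gene, with CPM of the 6 livers of a group as points on a log axis and their median as a bar. In Id2 and C9 every Stat3-deleted liver lies below all WT livers, and in Gstt1 and Nfkbia every one lies above them.

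Interferon-inducible genes led the increases. Of 13 tested immunity-related and guanylate-binding GTPases, which attack the vacuoles of intracellular pathogens, 7 were higher and 0 lower, with a median of 1.44, and 3 of the 7 met the rule. Igtp (chr11:58199556-58207592), also called Irgm3, ran from 22.1 to 38.2 CPM in WT (median 29.7) and from 71.5 to 854 CPM in Stat3-deleted livers (median 521), without overlap (log2 fold change 4.05, SE 0.50, adjusted p = 1.72e-05), and from 16.6 to 99.2 CPM (median 20.9) in controls. Its tumour contrast was −0.28 (95% interval −1.22 to 0.66), too wide for the rule. Irgm2 (chr11:58214977-58222783) ran from 4.59 to 18.2 CPM in WT (median 11.7) and from 30.8 to 83.1 CPM in Stat3-deleted livers (median 47.8) and from 5.21 to 19.4 CPM (median 11.3) in controls (log2 fold change 2.18, SE 0.32, adjusted p = 0.00014). Iigp1 ran from 343 to 846 CPM in WT (median 595) and from 767 to 4552 CPM in Stat3-deleted livers (median 4183), with log2 fold change 2.49 (SE 0.34, adjusted p = 4.51e-05), and 5 of 6 Stat3-deleted livers exceeded every tumour-bearing WT liver. Gbp7, a guanylate-binding protein, ran from 26.5 to 52.4 CPM in WT (median 39.3) and from 34.8 to 313 CPM in Stat3-deleted livers (median 227), with log2 fold change 2.30 (SE 0.38, adjusted p = 0.000489).

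Of 43 antiviral and interferon-signalling genes 13 were higher and 0 lower, with a median of 0.50, and 9 of the 13 met the rule for genes not moved by the tumour. Usp18, the protease that removes ISG15 and restrains the interferon receptor, ran from 5.45 to 8.97 CPM in WT (median 7.32) and from 7.63 to 53.6 CPM in Stat3-deleted livers (median 22.4), with log2 fold change 1.82 (SE 0.32, adjusted p = 0.00101). Ifit1 ran from 4.86 to 12.7 CPM in WT (median 10.7) and from 8.44 to 45.7 CPM in Stat3-deleted livers (median 32.1), with log2 fold change 1.63 (SE 0.35, adjusted p = 0.00516). Irf7, a transcription factor of the interferon response, ran from 19.8 to 46.6 CPM in WT (median 30.5) and from 28.7 to 138 CPM in Stat3-deleted livers (median 91.6), with log2 fold change 1.42 (SE 0.28, adjusted p = 0.00252). Ifi47, a GTPase of the same family as Irgm2, rose by 1.87 (SE 0.32, adjusted p = 0.000669). The call of Irf7 was lost against WT replicates 4 to 6 alone (adjusted p = 0.0577) and that of Ifit1 against replicates 1 to 3 alone (0.0568). In each of these 4 the lowest Stat3-deleted liver lay within the WT range. Genes of antigen processing were higher as well. Of 18 tested genes of class I presentation and the immunoproteasome 7 were higher and 0 lower, with a median of 0.57, and all 7 met the rule. Tap1, the peptide transporter, ran from 15.1 to 37.1 CPM in WT (median 24.5) and from 31.8 to 141 CPM in Stat3-deleted livers (median 91), with log2 fold change 1.79 (SE 0.31, adjusted p = 0.00088). Psmb9, an inducible catalytic subunit of the proteasome, ran from 22.1 to 52.8 CPM in WT (median 31.6) and from 53.9 to 190 CPM in Stat3-deleted livers (median 114), without overlap (log2 fold change 1.78, SE 0.34, adjusted p = 0.00242). Psmb10, another such subunit, rose by 1.18 (SE 0.23, adjusted p = 0.00251), and Psme1, of the proteasome activator, by 0.80 (SE 0.16, adjusted p = 0.00306). Of 8 class II genes 0 were called by edgeR, by DESeq2 or by limma voom, and 0 had p under 0.05 before adjustment, with a median of 0.25.

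Stat3-deleted replicates 6 and 3 were low for these lists. Replicate 6 was the lowest of its group for most of these genes, at 71.5 CPM for Igtp against at least 229 CPM in the other 5, and at 767 CPM for Iigp1 against at least 1609 CPM. Without it the log2 fold change was 4.27 for Igtp, 2.69 for Iigp1 and 2.01 for Usp18. The list counts without it were 9 of 13 GTPases, 16 antiviral genes and 7 genes of antigen processing, and without replicate 3 they were 9, 13 and 7. Dropping other Stat3-deleted livers lowered them, to 6, 10 and 7 without replicate 2 and to 6, 11 and 7 without replicate 4. Without Stat3-deleted replicate 5 they were 6, 10 and 6. The summed GTPase level was 954 CPM in replicate 6, 1997 CPM in replicate 3 and 5237 to 5680 CPM in the other 4 Stat3-deleted livers, against 449 to 1001 CPM in tumour-bearing WT and 650 to 1394 CPM in control livers. In replicates 3 and 6 the summed antiviral genes (2332 and 1735 CPM) and the summed genes of antigen processing (10890 and 11060 CPM) lay within the WT ranges of 1482 to 2736 CPM and 9123 to 11400 CPM, while in the other 4 they lay above them. Summed T and NK cell markers had overlapping ranges in the groups. Apol9b, an interferon-inducible apolipoprotein L, rose by 1.76 (adjusted p = 0.000166), and Meiob, a meiosis protein, by 2.00 (adjusted p = 0.000335). Isg15, the ubiquitin-like modifier, rose by 1.51, Ifi44 by 2.06, Apol9a by 2.03 and Wdfy1, an adaptor of Toll-like receptor signalling, by 2.20. Without WT replicate 6 the log2 fold changes were 2.94 for Wdfy1, 1.84 for Ifi44 and 1.09 for Psmb10. The call of Isg15 was lost without Stat3-deleted replicate 2 (adjusted p = 0.0561), with limma voom (0.0676) and against WT replicates 1 to 3 alone (0.144), and that of Wdfy1 against replicates 4 to 6 alone (0.0896).

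**Figure D4:**
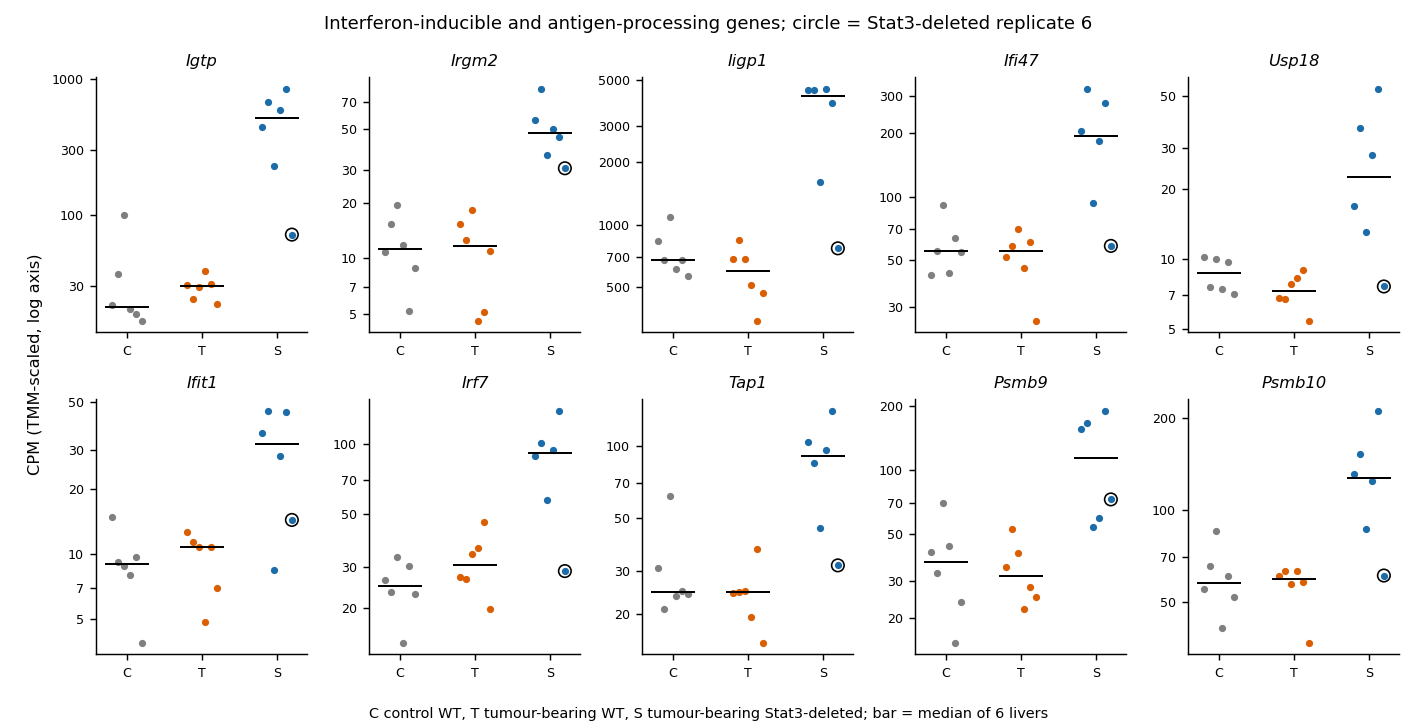
Each panel gives 1 gene, with CPM of the 6 livers of a group on a log axis, the median as a bar and Stat3-deleted replicate 6 circled. Tumour-bearing WT livers reach 38.2 CPM in Igtp and 846 CPM in Iigp1, and the circled liver lies lowest of its group in Igtp (71.5 CPM), Iigp1 (767 CPM) and most other panels.

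Other genes that rose without having moved with the tumour act in inflammatory signalling and plasma transport. Nfkbia, the inhibitor that holds NF-kB in the cytoplasm, ran from 98 to 204 CPM in WT (median 177) and from 267 to 299 CPM in Stat3-deleted livers (median 293), with log2 fold change 0.81 (SE 0.15, adjusted p = 0.0021). Tnfrsf1b, TNF receptor 2, ran from 13.3 to 26.1 CPM in WT (median 21.3) and from 37.7 to 55.6 CPM in Stat3-deleted livers (median 46.1), with log2 fold change 1.15 (SE 0.18, adjusted p = 0.000335). The chemokine gene Ccl9 ran from 54 to 104 CPM in WT (median 74) and from 139 to 183 CPM in Stat3-deleted livers (median 173), with log2 fold change 1.09 (SE 0.17, adjusted p = 0.000221). None of the 3 overlapped between genotypes. The list of NF-kB and IL-1 signalling as a whole had 2 higher and 5 lower of 27 tested genes (3 lower without WT replicate 4), with a median of −0.22. Ttr, the thyroxine and retinol carrier transthyretin, a plasma protein that falls in the acute phase, ran from 10730 to 18880 CPM in WT (median 12375) and from 19990 to 27070 CPM in Stat3-deleted livers (median 20835), with log2 fold change 0.68 (SE 0.17, adjusted p = 0.0154), and its class had 2 higher and 2 lower of 27 tested genes, with 6 higher under library totals or without WT replicate 6, and 1 lower after dropping any of WT replicates 1 and 4 and Stat3-deleted replicates 2 and 5. Herpud1, of the degradation of misfolded proteins at the endoplasmic reticulum, ran from 338 to 834 CPM in WT (median 492) and from 950 to 1342 CPM in Stat3-deleted livers (median 1232), with log2 fold change 1.12 (SE 0.22, adjusted p = 0.00266), and 2 of 38 genes of that list were higher, the other being Trib3, a pseudokinase of stress signalling. The calls of Ttr and Herpud1 were lost against WT replicates 4 to 6 alone (adjusted p = 0.221 and 0.0882), and that of Ttr also with the 12 tumour-bearing libraries alone (0.052).

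Genes of conjugation and of fatty acid oxidation were higher as well. Of 51 tested genes of phase II conjugation 14 were higher and 0 lower (9 without WT replicate 4), with a median of 0.44, and 7 of the 14 met the rule. Gstt1, a theta-class glutathione transferase (chr10:75783813-75798584), ran from 97 to 203 CPM in WT (median 135) and from 282 to 412 CPM in Stat3-deleted livers (median 324) and from 159 to 242 CPM (median 193) in controls (log2 fold change 1.25, SE 0.16, adjusted p = 3.38e-05). Ephx1, microsomal epoxide hydrolase, ran from 89 to 235 CPM in WT (median 156) and from 267 to 408 CPM in Stat3-deleted livers (median 370), with log2 fold change 1.26 (SE 0.20, adjusted p = 0.000326), and Gstm1, a mu-class transferase, from 558 to 1668 CPM in WT (median 1018) and from 1947 to 3591 CPM in Stat3-deleted livers (median 2770), with log2 fold change 1.41 (SE 0.24, adjusted p = 0.000661). The 3 genes had no overlap between genotypes. For Gsta2, an alpha-class transferase, the tumour contrast was called too (−2.29, adjusted p = 0.00788). It ran from 1.44 to 15.2 CPM in WT (median 8.13) and from 33.1 to 107 CPM in Stat3-deleted livers (median 40.6), with log2 fold change 2.57 (SE 0.47, adjusted p = 0.00146). Transferases have close relatives, and how reads were split between them is not given in the sources used here. Of 38 P450 genes 8 were higher, a count that rested on single libraries. It was 17 without WT replicate 6, 14 with library totals, 3 without WT replicate 3, 5 after dropping WT replicate 2 or 4 or Stat3-deleted replicate 3, and 4 after dropping Stat3-deleted replicate 2 or 6. Cyp2c67 rose by 1.096 (SE 0.18, adjusted p = 0.000373), and Cyp1a2, which oxidises caffeine and arylamines, by 0.91 (SE 0.23, adjusted p = 0.0161). Hsd17b6, a steroid dehydrogenase, ran from 51.6 to 108 CPM in WT (median 74.2) and from 261 to 321 CPM in Stat3-deleted livers (median 294), with log2 fold change 1.93 (SE 0.28, adjusted p = 9.26e-05).

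In fatty acid oxidation and ketogenesis 12 of 43 tested genes were higher and 0 lower, with a median of 0.43, and 9 of the 12 met the rule. The 12 numbered 6 without WT replicate 3 and 19 without replicate 6. Acot1, a cytosolic acyl-CoA thioesterase, ran from 7.95 to 27.2 CPM in WT (median 18.4) and from 35.3 to 131 CPM in Stat3-deleted livers (median 60.5), with log2 fold change 2.00 (SE 0.34, adjusted p = 0.000604). Bdh1, which makes the ketone body hydroxybutyrate, ran from 81.7 to 210 CPM in WT (median 183) and from 251 to 307 CPM in Stat3-deleted livers (median 281), with log2 fold change 0.70 (SE 0.16, adjusted p = 0.00924), the low value being that of WT replicate 6, without which the log2 fold change was 0.57. Eci2, an enoyl-CoA isomerase, rose by 0.59 (SE 0.13, adjusted p = 0.00604), and Acsl1, which activates fatty acids, by 0.84 (SE 0.20, adjusted p = 0.0116). Of 32 tested genes of lipogenesis and lipid storage 4 were higher and 0 lower, with a median of 0.12, and the higher ones numbered 2 after dropping any of WT replicates 2, 3 and 4 and Stat3-deleted replicate 2. Without WT replicate 6 there were 5 higher and 2 lower. Lpin2, a phosphatidate phosphatase (chr17:71183532-71249818), ran from 88.8 to 196 CPM in WT (median 119) and from 308 to 460 CPM in Stat3-deleted livers (median 359), with log2 fold change 1.48 (SE 0.19, adjusted p = 2.79e-05), and Dgat2, of triglyceride synthesis, from 156 to 267 CPM in WT (median 185) and from 246 to 312 CPM in Stat3-deleted livers (median 294), with log2 fold change 0.59 (SE 0.13, adjusted p = 0.006). Upp2, a uridine phosphorylase of the liver, ran from 47.6 to 317 CPM in WT (median 91) and from 418 to 694 CPM in Stat3-deleted livers (median 485), with log2 fold change 2.03 (SE 0.38, adjusted p = 0.00173). Of these, the calls of Acsl1, Eci2, Dgat2, Upp2 and Cyp1a2 were lost against WT replicates 4 to 6 alone (adjusted p from 0.0586 for Upp2 to 0.123 for Dgat2).

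Genes that set fuel use and hepatocyte identity moved in both directions. Of 36 tested genes of glucose and glycogen handling 7 were higher and 3 lower, the latter 1 without WT replicate 4. Ppp1r3b, which targets protein phosphatase 1 to glycogen, ran from 136 to 274 CPM in WT (median 192) and from 298 to 450 CPM in Stat3-deleted livers (median 368), with log2 fold change 0.91 (SE 0.16, adjusted p = 0.00129). Foxo1, a transcription factor of fasting, ran from 36.6 to 93.1 CPM in WT (median 48.3) and from 95 to 119 CPM in Stat3-deleted livers (median 99.8), with log2 fold change 0.94 (SE 0.20, adjusted p = 0.0045), and Ppargc1a, a coactivator of mitochondrial genes, from 4.36 to 15.1 CPM in WT (median 5.5) and from 9.55 to 42.3 CPM in Stat3-deleted livers (median 18.5), with log2 fold change 1.498 (SE 0.32, adjusted p = 0.00596). Of 38 hepatocyte transcription factors 5 were higher and 2 lower. The higher ones numbered 3 after dropping any of WT replicates 2 and 3 and Stat3-deleted replicate 2. The lower ones numbered 1 with library totals, and 1 after dropping any of WT replicates 1 and 2 and Stat3-deleted replicates 3 and 5. Nr1i2, the pregnane X receptor that senses drugs, rose by 0.81 (SE 0.16, adjusted p = 0.00324). Tsc22d3, a glucocorticoid-induced leucine zipper protein, ran from 61.1 to 162 CPM in WT (median 80.4) and from 163 to 207 CPM in Stat3-deleted livers (median 188), with log2 fold change 0.95 (SE 0.23, adjusted p = 0.0125). Nr0b2, the small heterodimer partner that represses bile acid synthesis, ran from 12.9 to 37.1 CPM in WT (median 17.7) and from 29.4 to 60.4 CPM in Stat3-deleted livers (median 51.2), with log2 fold change 1.18 (SE 0.23, adjusted p = 0.0029), and Esr1, oestrogen receptor alpha, from 12.9 to 29 CPM in WT (median 21.5) and from 6.7 to 11.2 CPM in Stat3-deleted livers (median 9.61), with log2 fold change −1.25 (SE 0.28, adjusted p = 0.00777). Of 21 clock genes 4 were higher and 0 lower, all 4 not moved by the tumour. Nr1d2, a repressor of the clock, ran from 27.5 to 44.4 CPM in WT (median 38.7) and from 55 to 73.8 CPM in Stat3-deleted livers (median 63.7), with log2 fold change 0.77 (SE 0.15, adjusted p = 0.00216), its relative Nr1d1 rose by 1.14 (adjusted p = 0.00509), and Tef, a clock output factor, by 0.95 (adjusted p = 0.0134); the labels give no hour of collection. Without WT replicate 6, the highest WT liver for Tef, its log2 fold change was 1.33. Zbtb16, a zinc finger factor induced by glucocorticoids, ran from 2.36 to 15 CPM in WT (median 5.33) and from 15.1 to 27.4 CPM in Stat3-deleted livers (median 21.4), with log2 fold change 1.79 (SE 0.32, adjusted p = 0.00109), and N4bp2l1 from 8.14 to 18.9 CPM in WT (median 11.6) and from 34.2 to 74 CPM in Stat3-deleted livers (median 38.1), with log2 fold change 1.77 (SE 0.27, adjusted p = 0.000166). The calls of Foxo1, Ppargc1a, Nr1i2, Tsc22d3, Nr0b2, Esr1, Nr1d1, Tef and Zbtb16 were lost against WT replicates 4 to 6 alone (adjusted p from 0.0516 for Zbtb16 to 0.249 for Tef).

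Ribosomal protein genes were not called in either direction (0 of 43 in edgeR and DESeq2, 1 in limma voom, 2 with an unadjusted p under 0.05), and 2 of 44 genes of oxidative phosphorylation and 1 of 27 cell cycle genes were called, shares below the 6.12% over all genes. The count for oxidative phosphorylation moved with the libraries: 8 were higher with library totals or without WT replicate 5, 7 without WT replicate 6, 6 without Stat3-deleted replicate 4, and 1 after dropping any of WT replicates 1, 3 and 4 and Stat3-deleted replicates 3 and 5.

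Stat3 lies on chromosome 11, and a floxed allele brings flanking DNA of the strain in which it was made, so the share of called genes was read along that chromosome. Within 5 Mb of Stat3 8 of 142 tested genes were called (5.63%), within 10 Mb 14 of 214 (6.54%) and within 20 Mb 36 of 422 (8.53%), against 27 of 500 (5.4%) on the rest of the chromosome and 622 of 10272 (6.06%) on the others. The shares were not tested. The largest increase of all was that of BC018473, a noncoding RNA gene 15.8 Mb from Stat3 (chr11:116752167-116757883). It had 0 counts in all 12 WT livers and 191 to 349 counts in each of the 6 Stat3-deleted livers, at least 478.3-fold higher than in tumour-bearing WT livers with a floor of 3 counts over the group. Its neighbour St6galnac1, a sialyltransferase gene (chr11:116765025-116775507), had 0 counts in the same 12 livers and 18 to 57 counts in the Stat3-deleted ones, at least 62.12-fold higher by the same floor. Next to them Srsf2, a splicing factor (chr11:116849897-116853675), ran from 61.1 to 77.3 CPM in WT (median 72.7) and from 27.3 to 44.2 CPM in Stat3-deleted livers (median 31.9), with log2 fold change −1.12 (SE 0.13, adjusted p = 1.28e-05), and Mxra7 fell by 1.68 (SE 0.29, adjusted p = 0.000691). Dhx40, a helicase gene 14.1 Mb on the other side, ran from 50.1 to 66.3 CPM in WT (median 59.1) and from 19.5 to 36.8 CPM in Stat3-deleted livers (median 27.1), with log2 fold change −1.06 (SE 0.14, adjusted p = 3.89e-05). Cyb561, a cytochrome of ascorbate recycling 5.03 Mb away, had a log2 fold change of −4.25 (adjusted p = 1.01e-06). St6galnac1, Mxra7 and Cyb561 were chosen after their values were seen. For genes this close to Stat3, strain variants carried along with the floxed allele cannot be told apart from consequences of losing STAT3. The same holds for Nr1d1 (2.14 Mb from Stat3), Sox9 (11.9 Mb), Socs3 (17.1 Mb), Wfdc21 (17.2 Mb) and Ccl9 (17.3 Mb), described above. Slc13a5, the citrate transporter, also chosen after its values were seen, lies 28.7 Mb away and ran from 4.48 to 27.4 CPM in WT (median 11) and from 0 to 1.54 CPM in Stat3-deleted livers (median 0.0626). The GTPase genes Igtp and Irgm2 lie on the same chromosome at 42.7 Mb. Genes far from Stat3 share a wider limit, because the groups also differ by Alb-Cre and may differ in strain background.

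**Figure D5:**
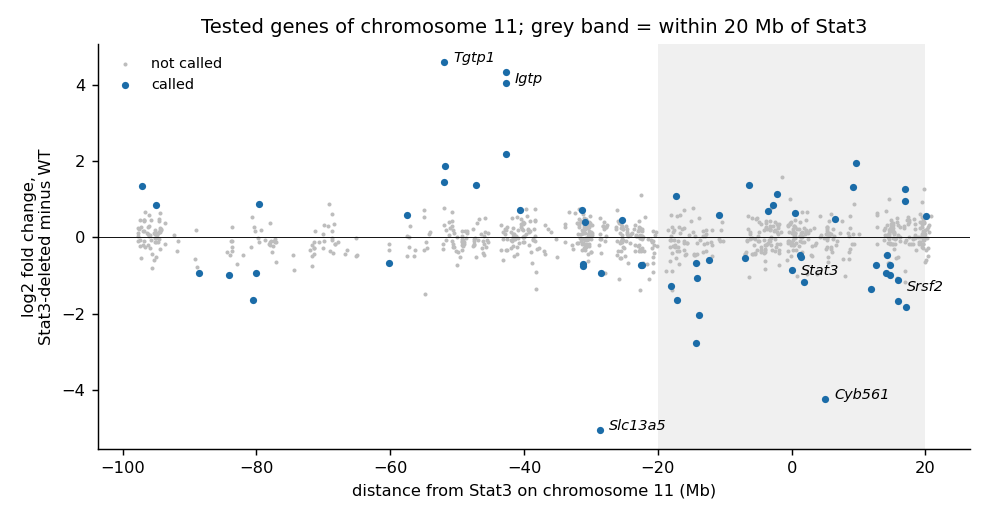
Each point is 1 tested gene of chromosome 11, with its distance from Stat3 in Mb on the x axis and the log2 fold change of Stat3-deleted over WT livers on the y axis. Called genes are blue and lie along the whole chromosome, with 36 of the 422 genes in the grey 20 Mb band called; BC018473 and St6galnac1, at 0 counts in all WT livers, are not drawn.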

How the data were processed

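RNA of 18 liver samples was extracted with TRIzol and RNeasy columns and made into Quantseq 3′ FWD libraries, per the labels' protocols. The authors deposited 1 table of whole-number read counts per gene symbol, from reads aligned with STAR to mm10, per the submitters' processing notes; for the counting tool, annotation and strand the sources used here give nothing. Of 24421 symbols 27 read as dates, as spreadsheets make of some gene names, and were dropped (0.103 to 0.166% of each library's counts), which leaves 24394. Total counts were 5212265 to 9545442 per library. No pair of libraries held identical values.

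Genes were kept with edgeR's filterByExpr, scaled by TMM and fitted with edgeR's quasi-likelihood model over all 18 libraries in 3 groups (residual degrees of freedom 15, biological coefficient of variation 0.281). The contrast was Stat3-deleted minus WT tumour-bearing livers, with Benjamini-Hochberg adjustment over 11218 genes and a threshold of 0.05. The CPM and log2 fold changes were computed here from the deposited counts. Every adjusted p in the text, unless another tool is named, comes from this edgeR model. Positions come from RefSeq on GRCm38.p6 for 11194 of the tested genes (99.8%).

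Named genes were Stat3, Saa1, Saa2 and Socs3, the 15 largest changes each way with a mean of at least 10 CPM, the 12 largest each way among called genes not moved by the tumour, and the 4 smallest adjusted p of each gene list, from which the text takes those it describes; some genes that the rule names are not reported here. There were 31 function and 16 marker lists. Summed levels of a list cover all its members with counts, tested or not. The comparison and the lists were chosen with earlier results of these data known. Alternatives were other scalings, filters, tools and limits, a replicate block, thinned counts, the 12 tumour-bearing libraries alone, either run of WT label numbers and each library left out. The model was tested on simulated data. R 4.3.3, edgeR 4.0.16, limma 3.58.1, DESeq2 1.42.0, Python 3.11.15, pandas 2.3.3, numpy 2.4.6 and matplotlib 3.10.9 were used.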

Additional observations from a re-analysis of the deposited data

Results flagged for a closer look

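In groups of 6 livers, a single liver lay far from the other 5 on the log2 scale for 13 of 206 gene and group pairs (6.31%), where chance alone marks about 1 in 20 groups. Of the 13, 6 are WT replicate 6. In that liver Ifi44 was at 1.06 CPM against 6.96 to 11.6 CPM in the other 5, and Psmb10 at 36.6 CPM against 57.3 to 63.2 CPM. It was also low for Bdh1, with 81.7 CPM against 171 to 210 CPM. The same liver was high for Cyp3a13 (872 CPM against 315 to 418 CPM), B3galt1 (61.6 CPM against 25.4 to 34.4 CPM) and Tef (106 CPM against 29.7 to 44.2 CPM). Among the Stat3-deleted livers, replicate 4 had Saa1 at 161 CPM against 10.7 to 28.3 CPM in the other 5, and Wfdc21 at 1340 CPM against 1720 to 1900 CPM. Replicate 2 had Srsf2 at 44.2 CPM against 27.3 to 32.3 CPM and Ephx1 at 267 CPM against 357 to 408 CPM. Replicate 6 had Gsta2 at 107 CPM against 33.1 to 50.5 CPM, replicate 1 had Nr1i2 at 93.5 CPM against 122 to 141 CPM, and replicate 5 had Trib3 at 23.1 CPM against 16.2 to 17.6 CPM.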

How the results depend on the processing

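No gene called in the comparison changed sign under any alternative. The count of 686 called genes was 676 with DESeq2 size factors in edgeR, 647 with no filter on low counts, 675 with a stricter one, 609 with the 12 tumour-bearing libraries alone, 597 with all libraries thinned to the smallest, 694 with library totals and 897 with DESeq2, which called 99.6% of the 686 again. With limma voom it was 1097 (575 higher), and the count not moved by the tumour was 727 (444 higher, 283 lower). Against WT replicates 4 to 6 alone 373 genes were called (134 higher, 239 lower) and 89 were not moved by the tumour (42 higher, 47 lower); fewer libraries enter there, and replicates 1 to 3 alone gave 812. With the interval within 1.5-fold 158 genes were not moved (98 higher, 60 lower), with no limit on it 253 lower genes, and with a call against controls required 164 (97 higher, 67 lower). Leaving out 1 library at a time gave 469 (without WT replicate 4) to 906 called genes, 213 to 471 higher, 256 to 435 lower, 248 to 365 at least 2-fold, and 242 to 572 not moved by the tumour (137 to 353 higher, 103 to 219 lower), with the extremes at WT replicates 2, 3, 4 and 6. The log2 fold change of Stat3 was −0.91 to −0.77. The replicate numbers only name samples: same-numbered livers of the 2 genotypes correlated at −0.0825 to 0.212 over 6 pairs, 1 of 6 best with its own number. With a replicate block 710 genes were called and 430 were not moved by the tumour. Of the 103 genes tracked one by one 74 kept their call under every alternative, and 3 (Socs3, Isg15 and Hamp2) lost it when 1 library was left out. Of 2982 gene values under alternatives 2938 kept the call and 44 lost it. Of 1786 list counts under library totals or without 1 library 1533 stayed within 1.5 times and 253 moved. With 6 livers a group and 5212265 to 9545442 counts a library, a gene that was not called is not shown to be equal between genotypes.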

Other observations

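Iron and metal handling followed the acute-phase genes, with 11 of 30 tested members lower and 2 higher, but the lower ones include Fgl1, Lcn2, Hpx, Hp, Slc39a14, Steap4 and Cp, which the acute-phase list also holds. Beyond that overlap the hemochromatosis-linked receptor gene Tfr2 and the zinc and manganese transporters Slc30a1 and Slc30a10 fell. Hamp2, the second mouse hepcidin gene, rose by 2.31 on the log2 scale (adjusted p = 0.0388 in edgeR), a call lost without any 1 of 8 libraries (adjusted p from 0.0533 to 0.0908). Of 31 genes of plasma protein glycosylation 2 were lower, and of 30 growth factors and hepatokines 5 were lower, among them Hgf, Thpo, Fst and Inhbe, and 1 was higher (Igfbp2). The lower ones numbered 1 without WT replicate 3 or Stat3-deleted replicate 1 or 3, 2 with library totals or without Stat3-deleted replicate 6, and 3 after dropping any of WT replicates 1, 2, 4 and 5 and Stat3-deleted replicates 2 and 4. The higher ones numbered 3 without WT replicate 6 and 2 with library totals or without control replicate 5.

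Of 16 pericentral hepatocyte markers 2 were higher and 2 lower (Tbx3 and Slc1a4), 25% called, and of 14 periportal markers 3 were higher and 0 lower (21.4%), beside 6.12% called over all genes. The higher pericentral markers numbered 1 without any single 1 of the 12 tumour-bearing libraries other than WT replicate 6 (3 without that one) and without control replicate 2, 4 or 6, and the lower ones 1 without WT replicate 4. The higher periportal markers numbered 6 without WT replicate 6 and 2 without WT replicate 3. Of 23 male-biased genes 1 was lower (4.35%), and of 14 female-biased genes 1 was higher (7.14%), near the 6.12% over all genes. The median log2 fold change was positive in both lists, at 0.47 for male-biased and 0.86 for female-biased genes. The summed level of all 28 listed female-biased genes was 252 to 2340 CPM in WT and 1710 to 3560 CPM in Stat3-deleted livers. Of 20 endothelial markers 1 was higher, and of 20 monocyte and macrophage markers 2 were lower, Fn1 and Spp1. Of 21 immediate early genes, which respond to tissue handling, 3 were lower (1 without WT replicate 6 or any of Stat3-deleted replicates 1, 3, 4 and 6).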
